A study of Homo sapiens with 6 samples.

Results

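Sulphated glycosaminoglycans are long sugar chains, chiefly heparan sulphate and chondroitin or dermatan sulphate, that are built on core proteins to make proteoglycans. The gene set described here holds 53 human genes for the enzymes that start, extend and modify these chains, for the supply of sulphate and sugar donors, and for the syndecan and glypican core proteins of the cell surface. It was drawn up by function, though with earlier results of these data known. Each gene was represented by the probe set with the highest mean over all arrays among those annotated to that gene alone. In this way 51 of the 53 genes were measured, out of 18129 genes tested. NDST2 had no probe set in the annotation used, and HS3ST3A1 had only a probe set that it shares with HS3ST3B1.

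Expression was measured on 6 Affymetrix arrays, 1 per sample, in UMUC3-c31 cells. UMUC3 is an established line from a human bladder cancer, and the name c31 ties these cells to it. All cells were kept for 24 h in charcoal-stripped serum, which is depleted of steroids, and then treated for 24 h. The 2 groups of 3 arrays each were R1881, a synthetic androgen, at 10 nM, and ethanol vehicle. The series title concerns bladder cancer that responds to androgen, and the comparison asks which transcripts differ after R1881. The labels do not say how c31 was derived or whether it is a single clone.

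Synthesis starts when a xylosyltransferase places xylose on a serine of the core protein. Galactose and glucuronic acid are then added to complete the linker tetrasaccharide. While the linker is made, FAM20B adds a phosphate to the xylose and PXYLP1 takes it off again, and removal is needed for efficient completion of the linker. The chain is next extended either by the exostosins as heparan sulphate or by the chondroitin synthases as chondroitin. N-deacetylase/N-sulphotransferases, an epimerase and O-sulphotransferases then modify it, using the sulphate donor PAPS. In the urothelium and its tumours such chains, carried largely by syndecans, hold growth factors and matrix proteins at the cell surface.

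R1881 changed 7 of the 51 measured genes, raising 6 and lowering 1. PXYLP1 rose most, 3.82-fold, followed by UST with 1.71-fold and NDST1 with 1.57-fold, while SLC26A2, SDC3 and SDC4 rose by smaller amounts and SDC1 fell. A change here means an adjusted p under 0.05 in limma, a linear model with moderated errors, with Benjamini-Hochberg adjustment over all 18129 genes. By this rule 2.42% of all genes were called (1.6% higher and 0.816% lower), against 13.7% of the set. The members were chosen with earlier results of these data known, so this share describes them and carries no test. The median change of the 51 genes was 0.04 on the log2 scale, and the 44 genes that were not called lay between -0.25 and 0.35. All 7 called genes had groups that did not overlap, as had 15 of the 51 (29.4%) and 18.5% of all genes. The 7 were called from the same values, so this is no separate support for them.

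**Figure D1:**
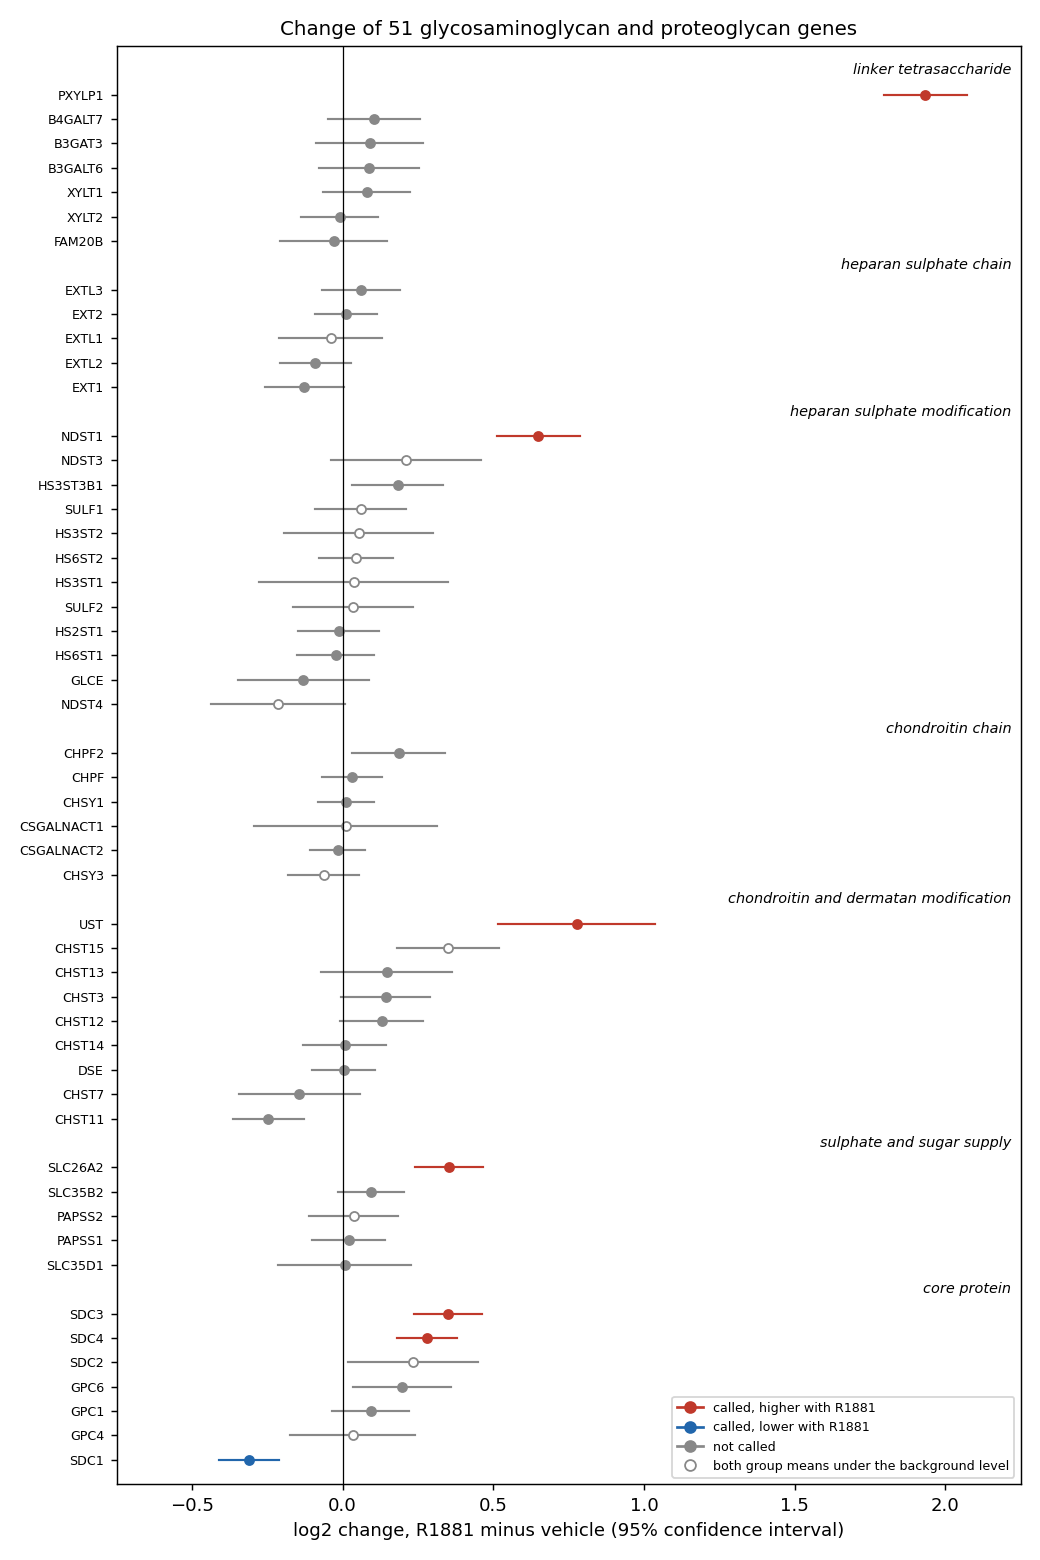
Log2 change (R1881 minus vehicle, x axis) of the 51 measured genes, grouped by role down the page, with 95% confidence intervals as bars; red marks genes called higher, blue the gene called lower, grey the rest, and open circles genes whose means lay under the background level in both groups. PXYLP1, at 1.93, stands far to the right of all others, and SDC1 is the single blue point.

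Values are the authors' RMA values on the log2 scale, in which 1 unit is a doubling. Array medians were 5.49 to 5.51 over 49193 probe sets. In a principal component analysis over genes the leading component separated the groups, with 9.41 to 10.2 for R1881 arrays and -14.0 to -7.24 for vehicle arrays. On the next component vehicle replicate 1, at 11.04, was far from its group's other arrays, at -8.21 and -6.99, and R1881 replicate 1 lay on the same side, at 5.69 against -0.67 and -0.87. Without vehicle replicate 1, 6 of the 7 genes kept their call. SDC4 lost it, with a limma adjusted p of 0.0554. A background level of 4.99 was set from 423 olfactory receptor and keratin-associated protein genes, taken as silent here, and 37 of the 51 genes exceeded it with R1881, with vehicle or with both. All 7 called genes were among these 37 (18.9%), beside 3.86% of the 11049 genes above background in all.

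Markers bear on what these cells are. KRT8 and KRT18, keratins of simple epithelia, stood at 7.84 and 10.38 with R1881 and at 7.91 and 10.75 with vehicle, whereas the uroplakin genes UPK1B, UPK2 and UPK3A, defining markers of differentiated urothelium, lay under the background level, UPK1A stood just above it at 5.08 with R1881 and 5.03 with vehicle, and 6 of 14 measured urothelial markers exceeded it. The mesenchymal markers VIM, CDH2, ZEB1, FN1 and SNAI2 all exceeded it. Of these SNAI2 rose by 1.53 and FN1 by 0.73 with R1881 (adjusted p = 7.42e-05 and 0.00473, limma). VIM, CDH2 and ZEB1 were not called, with changes of -0.04, -0.04 and -0.10. The mean urothelial marker level, taken on the linear scale and then as log2, was 7.01 to 7.08 on R1881 arrays and 7.29 to 7.36 on vehicle arrays. KRT18 was the brightest of these markers, and the median change over the 14 was 0.04. KRT18 fell by 0.37 and KRT7 rose by 0.40 (adjusted p = 0.00830 and 0.0192, limma). Among markers of other cell types 2 of 10 fibroblast, 2 of 6 endothelial and 2 of 6 immune genes exceeded background. These were PDGFRB and THY1, VWF and TEK, and CD3E and CD68. THY1, at 8.37 with R1881 and 8.13 with vehicle, and CD68, at 8.69 with R1881 and 8.93 with vehicle, were the brightest of them. The defining markers COL1A1, COL3A1, PECAM1 and PTPRC lay below the background level. The mean level was 5.48 to 5.59 with R1881 and 5.33 to 5.42 with vehicle for the fibroblast markers, 4.43 to 4.53 and 4.20 to 4.29 for the endothelial ones, and 6.27 to 6.46 and 6.37 to 6.63 for the immune ones. TEK, an endothelial receptor, was called higher (adjusted p = 0.00550, limma), with a mean at about the background level with R1881 and one under it, 3.72, with vehicle, so no fold is given. Of the steroid receptor genes NR3C1, for the glucocorticoid receptor, rose by 0.25 (adjusted p = 0.0462, limma). The part of these markers in the results below was not tested. RNA was taken from whole cultures, so fewer cells with a transcript and less transcript per cell cannot be told apart.

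The promoter windows of 4 called genes are shown because they are the largest rise (PXYLP1), the called enzyme of heparan sulphate modification (NDST1) and the pair of syndecans that moved in opposite directions (SDC4 and SDC1). They run from 250 bases before to 50 bases after the gene start, 5′ to 3′ on the gene's strand, from RefSeq on GRCh38.p14. The table holds 2 windows for SDC1, of which one is shown. Capitals mark AGAACA, the repeat unit of the androgen and glucocorticoid response element, and GGGCGG, the GC box bound by SP1, each searched on both strands, where they read TGTTCT and CCGCCC.
PXYLP1, chr3:141231575-141231874 (+ strand): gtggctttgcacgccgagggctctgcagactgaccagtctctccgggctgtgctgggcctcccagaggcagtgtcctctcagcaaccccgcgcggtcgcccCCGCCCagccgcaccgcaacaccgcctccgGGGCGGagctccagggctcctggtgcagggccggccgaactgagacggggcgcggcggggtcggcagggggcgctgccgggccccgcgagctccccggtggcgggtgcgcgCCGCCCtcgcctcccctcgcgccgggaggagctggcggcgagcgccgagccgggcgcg
NDST1, chr5:150497529-150497828 (+ strand): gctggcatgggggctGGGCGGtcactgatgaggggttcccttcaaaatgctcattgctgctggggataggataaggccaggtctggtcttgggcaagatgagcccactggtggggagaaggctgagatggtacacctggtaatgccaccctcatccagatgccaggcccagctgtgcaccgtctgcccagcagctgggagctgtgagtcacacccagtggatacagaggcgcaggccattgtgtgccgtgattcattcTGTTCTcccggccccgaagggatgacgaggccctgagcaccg
SDC4, chr20:45348375-45348674 (- strand): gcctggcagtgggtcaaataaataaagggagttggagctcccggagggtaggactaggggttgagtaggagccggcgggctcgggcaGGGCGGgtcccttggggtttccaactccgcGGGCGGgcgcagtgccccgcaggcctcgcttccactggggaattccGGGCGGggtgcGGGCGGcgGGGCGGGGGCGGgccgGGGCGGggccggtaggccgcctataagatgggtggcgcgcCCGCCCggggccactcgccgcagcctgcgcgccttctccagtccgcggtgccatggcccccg
SDC1, chr2:20225426-20225725 (- strand): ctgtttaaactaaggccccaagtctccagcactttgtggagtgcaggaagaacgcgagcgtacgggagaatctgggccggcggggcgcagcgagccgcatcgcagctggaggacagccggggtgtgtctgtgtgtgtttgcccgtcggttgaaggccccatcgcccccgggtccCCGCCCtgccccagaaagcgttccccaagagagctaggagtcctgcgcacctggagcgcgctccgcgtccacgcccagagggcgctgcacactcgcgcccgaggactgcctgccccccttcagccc

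AGAACA was found in 1 of 8 windows of the 7 called genes, namely that of NDST1, starting 9 bases into the transcript as counted from 1 at its start. Of the 63 windows listed for the gene set 3 held it, and 14.8% of all 35116 windows did. The full palindrome, AGAACA followed by any 3 bases and TGTTCT, was in none of the 63 windows and in 1 of all windows. GGGCGG was in 8 of the 8 windows of called genes, in 50 of the 63 and in 45% of all windows. The PXYLP1 window was 78.7% G and C, that of NDST1 60.7%, that of SDC4 74.0% and the SDC1 window shown 67.7%. These are matches of letters in short windows and say nothing of binding.

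Among the linker genes PXYLP1 was alone in its response. It measured 9.94, 9.96 and 9.80 on the R1881 arrays, against 7.99, 7.91 and 8.0 on the vehicle arrays. The lowest R1881 value was far above the highest vehicle value. The change was 1.93 ± 0.06 (SE) with n = 3 arrays per group, a fold of 3.82 (95% confidence interval 3.47 to 4.20) and a limma adjusted p of 2.63e-05, and it was the rise ranked 5 of 18129 genes. PXYLP1 has 4 probe sets, and all of them were called when every probe set was tested, with changes of 1.93, 1.85, 1.79 and 1.30. The smallest of these came from the dimmest set.

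FAM20B, the kinase that PXYLP1 opposes, did not pass the test. It measured 8.50, 8.41 and 8.23 with R1881 and 8.35, 8.44 and 8.44 with vehicle, so that the groups overlapped. Its change was -0.03 with a confidence interval of -0.21 to 0.15, and its other probe set gave a like value, -0.03. The remaining linker enzymes are the xylosyltransferases XYLT1 and XYLT2, the galactosyltransferases B4GALT7 and B3GALT6 and the glucuronyltransferase B3GAT3. Their changes ran from -0.01 to 0.10, and no interval reached beyond 0.27. XYLT1 stood at 8.26, 8.09 and 8.07 with R1881 and 8.08, 8.07 and 8.03 with vehicle, B4GALT7 at 6.49, 6.41 and 6.50 with R1881 and 6.24, 6.44 and 6.41 with vehicle, and B3GALT6 at 8.07, 8.17 and 8.13 with R1881 and 7.91, 8.16 and 8.04 with vehicle. In each of these the groups overlapped. All 7 linker genes lay above background.

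The exostosins, which polymerise heparan sulphate, gave no call among 5 measured genes, and none had an unadjusted p under 0.05, which 14.3% of all genes had. EXT1 and EXT2 form the polymerase. EXT1 measured 9.31, 9.18 and 9.26 with R1881 and 9.31, 9.44 and 9.38 with vehicle, touching at 9.31. Its change was -0.13 with an interval of -0.26 to 0.01 (limma adjusted p = 0.369), and EXT2 stood at 0.01 with an interval of -0.09 to 0.11. EXTL2, which can add a terminating sugar to the linker, was lower on every R1881 array, at 9.10, 9.08 and 8.99 with R1881 and 9.19, 9.11 and 9.14 with vehicle. The change was only -0.09 (adjusted p = 0.464), and its 4 probe sets all had negative values, from -0.09 to -0.21. EXTL3, an initiator of the chain, stood at 8.59, 8.74 and 8.61 with R1881 and 8.59, 8.62 and 8.55 with vehicle. EXTL1 lay under background.

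Of 12 measured genes that modify heparan sulphate only NDST1 was called. NDST1 removes acetyl groups from glucosamine and replaces them with sulphate, a step that later modifications depend on. It measured 8.50, 8.55 and 8.62 with R1881, against 7.82, 7.92 and 7.98 with vehicle. The groups were clearly apart, and the change was 0.65 ± 0.06 (SE, n = 3 per group), a fold of 1.57 (95% confidence interval 1.43 to 1.73) with a limma adjusted p of 0.00225. With every probe set tested, 3 of its 4 sets were called, at 0.51, 0.65 and 0.77. The remaining set, though the second brightest, gave 0.08 with values of 7.78, 7.84 and 7.78 for R1881 and 7.81, 7.66 and 7.69 for vehicle (adjusted p = 0.597). Which transcripts each set detects was not analysed here.

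The relatives of NDST1 that were measured, NDST3 and NDST4, lay under background in both groups. NDST3 stood at 3.75, 3.52 and 3.35 with R1881 and 3.35, 3.22 and 3.42 with vehicle, and NDST4 at 3.53, 3.75 and 3.49 with R1881 and 3.65, 3.92 and 3.84 with vehicle. Neither was called. Also under background were HS6ST2, HS3ST1, HS3ST2 and the extracellular endosulphatases SULF1 and SULF2, which trim sulphate from finished chains. The epimerase GLCE and the sulphotransferases HS2ST1 and HS6ST1 were above background and stood at -0.13, -0.01 and -0.02, with intervals within -0.35 and 0.12. HS3ST3B1, a sulphotransferase acting late on the chain, measured 5.90, 5.81 and 5.79 with R1881 and 5.74, 5.54 and 5.67 with vehicle. The groups did not overlap, but the change of 0.18 did not pass (adjusted p = 0.264). The set it shares with HS3ST3A1 measured 6.08, 6.36 and 6.18 with R1881 and 6.17, 6.17 and 6.06 with vehicle, with overlapping groups.

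No gene of chondroitin chain synthesis was called among 6 measured. CSGALNACT2, which adds the N-acetylgalactosamine that commits the linker to chondroitin, stood at -0.02, and the synthase CHSY1 at 0.01. Their intervals were -0.11 to 0.08 and -0.08 to 0.10. CHPF2, a chondroitin polymerising factor, had the smallest p of the group. It measured 6.85, 6.88 and 6.82 with R1881 and 6.53, 6.75 and 6.71 with vehicle, without overlap, for a change of 0.19 (adjusted p = 0.265), and its other set gave 0.21. CHPF stood at 7.37, 7.42 and 7.40 with R1881 and at 7.35, 7.40 and 7.35 with vehicle, which overlap. CHSY3 and CSGALNACT1 lay under background, CHSY3 at 3.93, 4.01 and 4.01 with R1881 and 4.02, 4.11 and 4.01 with vehicle.

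UST was the called gene among 9 that modify chondroitin and dermatan sulphate. It encodes uronyl sulphotransferase, which places sulphate on the uronic acid of these chains. UST measured 7.43, 7.68 and 7.41 with R1881, against 6.52, 6.83 and 6.84 with vehicle. R1881 replicate 2 was the highest array and vehicle replicate 1 the lowest, and the groups did not overlap. The change was 0.78 ± 0.11 (SE, n = 3 per group), a fold of 1.71 (95% confidence interval 1.43 to 2.05) with a limma adjusted p of 0.0145. It was 0.67 without vehicle replicate 1 (adjusted p = 0.0411), whereas leaving out any other single array moved the adjusted p to between 0.0507 and 0.0677. The dimmer of its 2 sets gave 0.56, with an adjusted p of 0.0892 over every probe set.

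A pair of chondroitin sulphotransferase genes lay just past the threshold, with opposite signs. CHST11, which sulphates N-acetylgalactosamine of chondroitin, measured 9.71, 9.81 and 9.70 with R1881 and 10.03, 9.96 and 9.97 with vehicle. Every R1881 array was lower, and the change was -0.25 ± 0.05 (SE) with an adjusted p of 0.0610. Its 3 probe sets ran from -0.25 to -0.17, and it was called when their mean was tested (adjusted p = 0.0430), when dim genes were left out (0.0205) and with a trended, robust prior (0.00675). CHST15, which adds a second sulphate to such residues, measured 4.68, 4.65 and 4.63 with R1881 and 4.32, 4.43 and 4.16 with vehicle. All of these values are under the background level, so no fold is given (adjusted p = 0.0637), and it passed with the trended, robust prior (0.0491).

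The others of this group were CHST3, CHST7, CHST12, CHST13, CHST14 and the dermatan epimerase gene DSE, with changes from -0.14 to 0.15 and no call. CHST3 measured 8.51, 8.48 and 8.39 with R1881 and 8.21, 8.39 and 8.35 with vehicle, which touch at 8.39. CHST12 had groups that did not overlap, at 0.13 (adjusted p = 0.377). DSE and CHST14, both of dermatan sulphate synthesis, stood at 0.00 and 0.01.

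**Figure D2:**
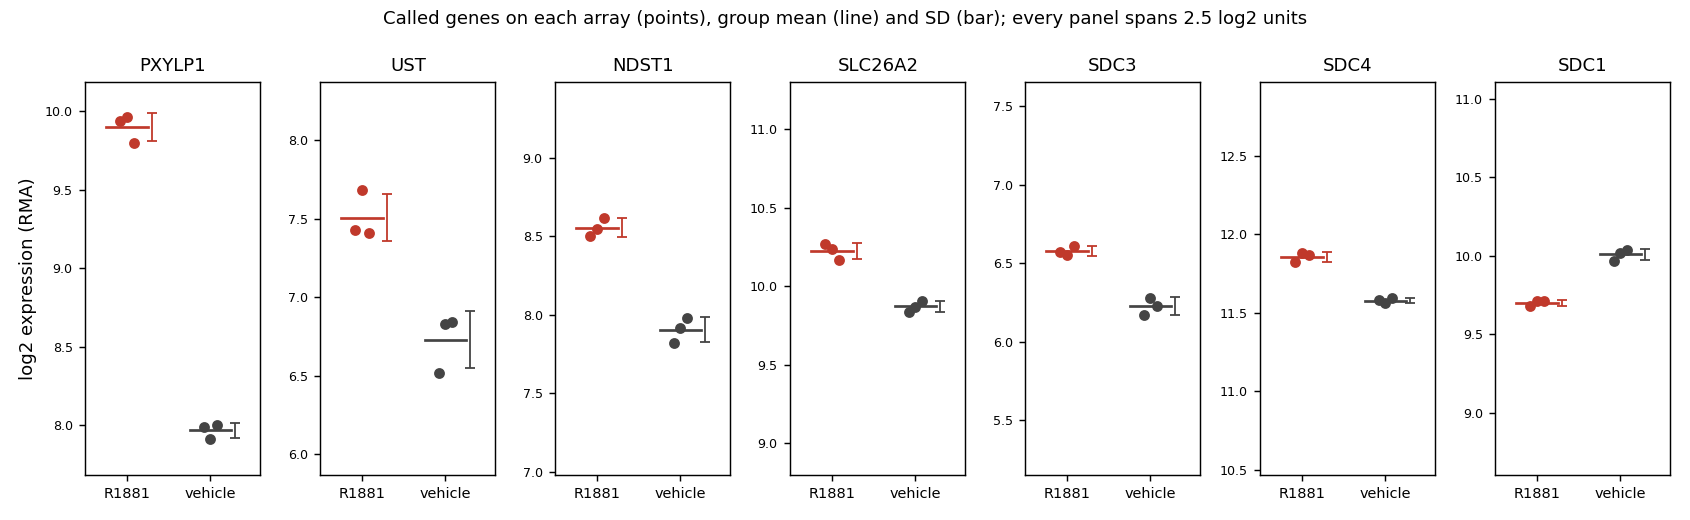
Log2 expression (RMA, y axis) of the 7 called genes on each array, R1881 in red and vehicle in dark grey, with the group mean as a line and the SD (n = 3) as a bar beside it; all panels span the same number of log2 units. In every panel the groups are apart, by about 1.93 for PXYLP1 and by 0.28 for SDC4, and in the SDC1 panel the R1881 arrays lie lower.

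SLC26A2 was called among the 5 genes of sulphate and sugar supply. It encodes a plasma membrane sulphate transporter on which sulphation of matrix proteoglycans in cartilage depends. The gene measured 10.27, 10.24 and 10.17 with R1881, against 9.84, 9.87 and 9.91 with vehicle. No array of one group came near the other group. The change was 0.35 ± 0.05 (SE, n = 3 per group), a fold of 1.28 (95% confidence interval 1.18 to 1.38) with a limma adjusted p of 0.0116. Its 4 probe sets gave 0.31 to 0.35, and 2 of them were called with every probe set tested. Without R1881 replicate 1, R1881 replicate 2 or vehicle replicate 2 the adjusted p was 0.0570, 0.0679 and 0.0630.

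The enzymes that turn sulphate into PAPS, and the carriers that bring PAPS and UDP-sugars into the Golgi, gave no call. PAPSS1 stood at 9.56, 9.63 and 9.54 with R1881 and 9.50, 9.55 and 9.62 with vehicle, and its relative PAPSS2 lay under background at 3.68, 3.55 and 3.56 with R1881 and 3.55, 3.65 and 3.48 with vehicle. In both the groups overlapped. SLC35B2, the PAPS carrier, was higher on every R1881 array, with 8.91, 8.99 and 9.02 for R1881 and 8.87, 8.89 and 8.88 for vehicle. The change was 0.09 (adjusted p = 0.419), and all 5 of its probe sets had positive values, from 0.04 to 0.31, none called. SLC35D1, which carries UDP-sugars, stood at 0.01 with an interval of -0.22 to 0.23.

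Of the 7 core protein genes measured, SDC3 and SDC4 rose, SDC1 fell and 4 did not pass. Syndecans are transmembrane proteins that carry heparan sulphate, and SDC1 and SDC3 can also carry chondroitin sulphate. SDC4, a component of focal adhesions, measured 11.82, 11.88 and 11.87 with R1881, against 11.58, 11.56 and 11.59 with vehicle. The change was 0.28 ± 0.04 (SE, n = 3 per group), a fold of 1.21 (95% confidence interval 1.13 to 1.30) with a limma adjusted p of 0.0187. Its values varied little within a group, and all 3 of its probe sets were called, at 0.28, 0.31 and 0.33. SDC4 kept its call only without R1881 replicate 1 (adjusted p = 0.0494) and had 0.0554 to 0.0893 without any other array.

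SDC3, best known from the nervous system, measured 6.57, 6.55 and 6.61 with R1881, against 6.17, 6.28 and 6.23 with vehicle. The groups did not overlap, and the change was 0.35 ± 0.05 (SE, n = 3 per group), a fold of 1.27 (95% confidence interval 1.18 to 1.38) with a limma adjusted p of 0.0124. Its other set, dimmer at a mean of 4.87, gave -0.04, and with the mean of both sets the change was 0.15 and was not called (adjusted p = 0.142). It kept its call without vehicle replicate 1 or 2 and had 0.0564 to 0.0650 without any other array.

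SDC1, the main syndecan of epithelia, went the other way. It measured 9.68, 9.71 and 9.71 with R1881, against 9.97, 10.02 and 10.04 with vehicle. Every R1881 array was lower than every vehicle array, and the change was -0.31 ± 0.04 (SE, n = 3 per group), or 0.807 times the vehicle level (95% confidence interval 0.752 to 0.865), with a limma adjusted p of 0.0126. Its 3 probe sets gave -0.29, -0.31 and -0.35, and 2 of them were called lower with every probe set tested. These sets hold probes that may match several transcripts. The call held without vehicle replicate 1 (adjusted p = 0.0279) and had 0.0586 to 0.0683 without any other array. With replicate number added to the model SDC1 was not called, nor were SLC26A2, SDC3 and SDC4. KRT18, the only urothelial marker called lower, is given above, as is KRT7, which was called higher. Whether either is linked to SDC1 was not tested.

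SDC2 lay under background in both groups, with 3.91, 3.68 and 3.58 for R1881 and 3.41, 3.48 and 3.58 for vehicle. The glypicans, which carry heparan sulphate and are held in the membrane by a lipid anchor, gave no call. GPC6 was higher on every R1881 array, at 9.27, 9.14 and 9.03 with R1881 and 9.01, 8.93 and 8.91 with vehicle. Its change was 0.20 with an interval of 0.03 to 0.36 (adjusted p = 0.266), and its 4 probe sets were all positive. GPC1 stood at 7.17, 7.33 and 7.25 with R1881 and 7.12, 7.18 and 7.17 with vehicle, with overlapping groups, and GPC4 lay under background.

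**Figure D3:**
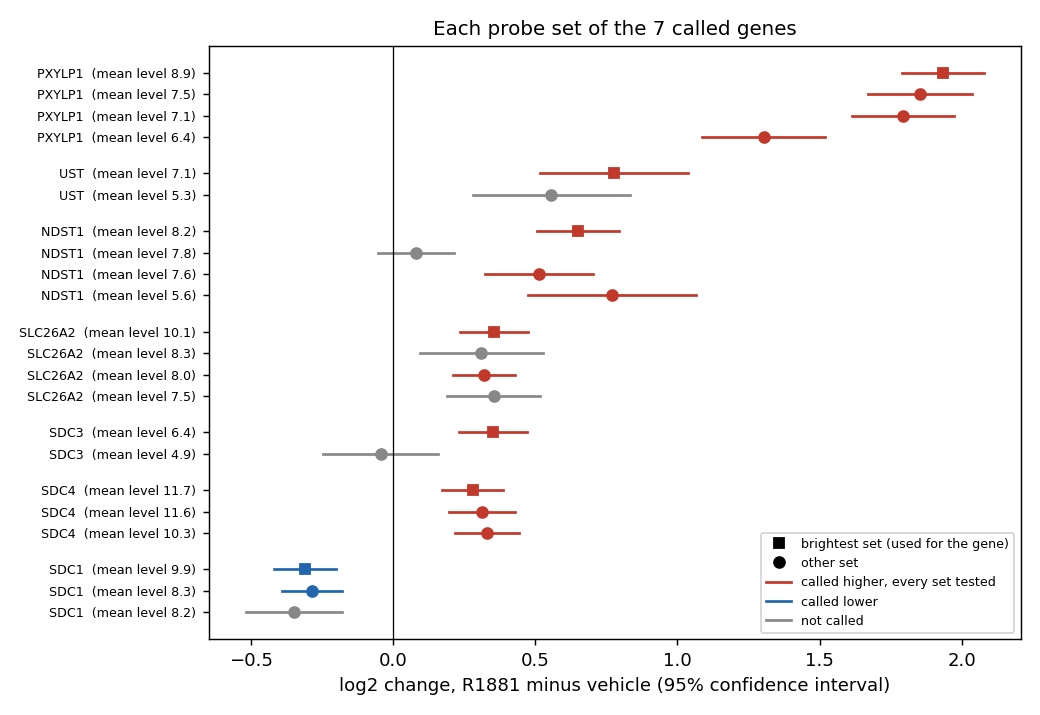
Log2 change (R1881 minus vehicle, x axis) with 95% confidence intervals for each probe set of the 7 called genes, brightest first within a gene (squares mark the set used for the gene, circles the others; red and blue, called higher and lower when every probe set is tested). The 4 PXYLP1 sets and the 3 SDC4 and SDC1 sets point one way, while 1 NDST1 set (0.08) and 1 SDC3 set (-0.04) lie near 0.

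NDST1 and SDC3, 2 of the 7 called genes, thus each have a probe set near 0. UST, SLC26A2 and SDC1 also have sets that were not called when every probe set was tested, though with the same sign. The gene set has 146 probe sets in all, and 43 of its genes have more than 1. With every probe set tested, no set of the other 44 genes was called, beside 1.61% of all sets. The 44 were themselves picked as not called in these data, so the 2 shares are not alike. For an individual called gene an exact two-sided permutation test over the 6 arrays gave p = 0.10, the smallest that 3 against 3 allows, in each of the 7 cases. Groups that do not overlap always give this value, so it only restates their separation. The intervals of the 44 genes that were not called all lay within 1.5-fold either way, between -0.44 and 0.52 on the log2 scale, and between -0.36 and 0.36 for the 30 of them above background. For the other 14 these bounds hold for a signal no brighter than that of genes taken as silent.

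**Figure D4:**
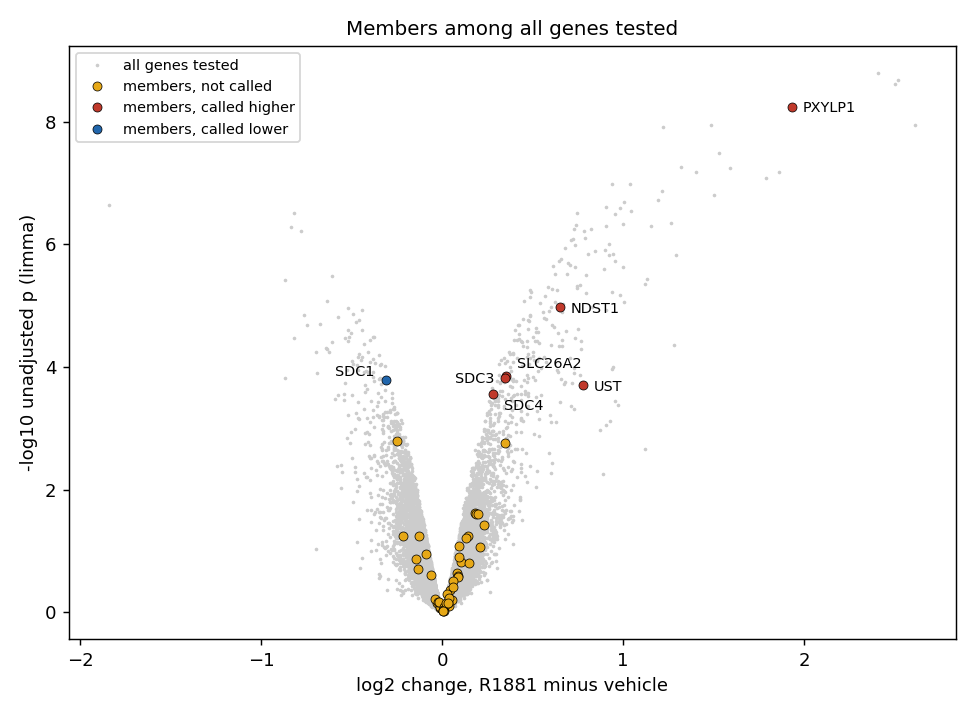
Log2 change (R1881 minus vehicle, x axis) against -log10 of the unadjusted limma p (y axis) for all 18129 genes in light grey, with the 44 members not called in yellow, the 6 called higher in red and SDC1, called lower, in blue. PXYLP1 lies among the most changed genes, and most members sit near 0.

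In the wider pathway, 56 of 62 listed genes were measured and 1 was called, a share of 1.79% beside 2.42% of all genes. The list covers nucleotide sugar synthesis, further Golgi carriers, other core proteins, keratan sulphate synthesis and degradation, and its median change was 0.05. The called gene was SRGN, for serglycin, a core protein of secretory granules. SRGN measured 11.17, 11.15 and 11.09 with R1881, against 10.80, 10.78 and 10.75 with vehicle. The groups were well apart, with a change of 0.36 ± 0.04 (SE, n = 3 per group), a fold of 1.28 and a limma adjusted p of 0.00799, which was 0.0505 without R1881 replicate 2.

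Among the other core proteins COL18A1, a basement membrane collagen that carries heparan sulphate, stood at 6.95, 7.05 and 7.02 with R1881 and 6.66, 6.76 and 6.80 with vehicle, without overlap and close to the threshold (0.27, adjusted p = 0.0640). It was called under the same 3 alternatives as CHST11 (adjusted p = 0.0218 to 0.0342). HSPG2, or perlecan, stood at 0.30 with an adjusted p of 0.309. None of 6 nucleotide sugar synthesis genes, of 8 carriers and related genes, of 15 degradation genes, of 5 keratan sulphate genes or of 6 further modifying enzymes was called, and the last 6 all lay under background. UAP1, which makes UDP-N-acetylglucosamine, stood at -0.11 and UXS1, which makes UDP-xylose, at 0.11. SLC10A7 stood at 0.35 on values under background (adjusted p = 0.122) and the carrier gene SLC35D2 at 0.11. The lysosomal enzyme genes GALNS and SGSH stood at 0.14 and 0.17 (adjusted p = 0.276 and 0.302), B3GNT7 at 0.11, CHST1 at 0.08, CHST9 at 0.18 and DSEL at 0.15.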

How the data were processed

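Values were the authors' RMA values on the log2 scale as deposited, per the submitters' processing notes, rounded to 2 decimals. Because RMA gives all arrays the same distribution, a shift of all transcripts would be removed. No version or filter was found in the labels. Of 49193 probe sets 44898 had 1 gene symbol in the platform's annotation and were used, 1825 had several and 2470 had none. Groups were compared with limma 3.58.1 in R 4.3.3 (lmFit, eBayes, no trend) over 18129 genes, with no filter, no covariate and Benjamini-Hochberg adjustment. The fit was tested on simulated data with errors drawn independently for each array. That test does not cover an outlying array or arrays that vary together. The members and lists were chosen with earlier results of these data known. All members are named, with values by array for called genes and for the 3 of smallest p in each role, and from the wider list called genes and the 2 of smallest p in each part. Others given values were chosen after these were seen. Fibroblast, endothelial and immune lists served to check the cell type. The design text calls the arrays biological replicates. Precision is limited by 3 arrays per group. No 2 arrays were alike, with at most 9.02% of values equal in a pair. The labels name no batch. Promoter sequences came from RefSeq, in which 47 of 53 genes matched. Alternatives were median centring, repeated quantile normalization, a filter on dim genes, a trended robust prior, a replicate block, testing every probe set or a gene's mean over its sets, and leaving out 1 array at a time.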

Additional observations from a re-analysis of the deposited data

How the results depend on the processing

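PXYLP1 and NDST1 were called under all 13 alternatives, and UST in the 7 that kept every array. Of the 6 genes called higher, 3 were called with the replicate block and 2 to 5 with 1 array left out. The count lower was 2 with dim genes left out, with a trended robust prior and with probe sets averaged per gene (SDC1 and CHST11 in each), 0 with the replicate block, and 0 to 1 with 1 array left out. The wider pathway count was 2, 3 and 2 under the same filter, prior and mean, and 0 to 1 with 1 array left out. Over all genes 438 were called, against 757 without dim genes, 895 with the trended robust prior, 222 with the replicate block, 352 genes by the set used for each (722 sets in all) when every set was tested, and 209 to 270 with 1 array left out, so fewer arrays cost calls throughout. The labels do not say whether replicate numbers pair the arrays, and the values do not settle it. Deviations from the group means correlated only at 0.092, 0.057 and 0.033 between arrays of the same number. Yet 6 of 6 arrays correlated best with their own number. The block, which also uses up degrees of freedom, kept PXYLP1, NDST1, UST and SRGN. With it SLC26A2, SDC1, SDC3 and SDC4 lost their calls, with limma adjusted p of 0.0776, 0.0657, 0.0676 and 0.0929. Centring on the median moved the median of all genes by no more than 0.013. Values near 0 changed sign: with probe sets averaged CHPF was -0.0056, PAPSS1 -0.028 and CHST1 -0.057, and with 1 array left out PAPSS1 ran from -0.0083 to 0.052, PAPSS2 from -0.0050 to 0.082 and CHST1 from -0.047 to 0.20. The causes were not tested. Detection calls were not used, so signal over background is known through the proxy genes only.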
